A study of Mus musculus with 2 samples.

Results

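The channel genes described here are the pore-forming and auxiliary subunits of potassium, sodium and calcium channels in mouse cells. They were chosen by symbol: every gene named Kcn followed by a family letter and a number, Scn with a number and a or b, or Cacna, Cacnb or Cacng. The rule found 132 of the 31053 genes in the feature lists: 92 potassium, 14 sodium and 26 calcium channel genes. All 132 had coordinates in the GENCODE vM21 annotation of GRCm38. Cells came from MM13 mouse embryonic stem cells on day 9 of a differentiation toward spinal sensory interneurons, under RA+BMP4 (retinoic acid with bone morphogenetic protein 4) or under RA (retinoic acid) alone. Both cultures carried the same MM13 genotype, and each condition was 1 culture library of the 10x Genomics Chromium 3′ v3 assay, in which a unique molecular identifier (UMI) marks each captured transcript. Dead cells had been removed with a kit after cold trypsin dissociation. With 1 library per condition no difference was tested, and every interval below is a 95% interval for counting error only.

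Barcodes numbered 13121 with 115268932 UMIs in RA+BMP4, and 9704 with 122110565 UMIs in RA. After filtering, 8352 RA+BMP4 cells with a median of 10465 UMIs and 5900 RA cells with a median of 14196 UMIs were kept. Of all barcodes, 43 occurred in both libraries. Clusters were called "X-like" from cell type markers that were left out of the clustering together with every channel gene. The labels call the cells differentiated neurons, and neuron-like clusters held 41.4% of RA+BMP4 cells and 51.5% of RA cells. The neuron-like cells were dI1-like (1778 in RA+BMP4 and 176 in RA), dI2-like (589 and 115), dI4/dILA-like (276 and 602), dI5/dILB-like (195 and 1005), newborn neuron-like (405 and 635) and pan-neuronal-like (212 and 504). Most other cells were roof plate-like (2924 and 1071), mesenchyme-like (921 and 436), progenitor-like (335 and 822) or pluripotent-like (169 and 321).

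Voltage-gated sodium channels carry the rising phase of the action potential, and potassium channels set the resting potential and end the spike. Voltage-gated calcium channels couple depolarisation to calcium entry, and their alpha2delta and beta subunits bring the pore to the membrane. Most Cacng genes encode transmembrane AMPA receptor regulatory proteins (TARPs), which share a name with a calcium channel subunit but serve glutamate receptors. Potassium channels that lack a voltage sensor, such as the small-conductance calcium-activated SK channels and the two-pore-domain leak channels, also work in cells that do not fire.

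All channel genes together were more abundant in neuron-like cells than in the other cells of either library. They summed to 1416 CPM in neuron-like cells and 590 CPM in all other cells of RA+BMP4, a ratio of 2.40 [2.37 to 2.43]. In RA they summed to 1297 CPM in neuron-like cells and 420 CPM in all other cells, a ratio of 3.09 [3.05 to 3.14]. CPM scales a gene's UMIs to the total of the cells summed. It counts captured 3′ ends of transcripts summed over cells, so it was not divided by gene length. A UMI was found for 129 members in RA+BMP4 and 128 in RA. Kcna10 and Kcnj1 had none in either library.

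By class, with cells of every maturity summed, the channel sum was highest in pan-neuronal-like cells, at 1775 CPM in RA+BMP4 and 1720 CPM in RA. It was 1690 and 1477 CPM in dI4/dILA-like cells, 1526 and 1337 CPM in dI2-like cells and 1388 and 1465 CPM in dI5/dILB-like cells of RA+BMP4 and RA. The dI1-like cells had 1467 CPM in RA+BMP4 and 997 CPM in RA. Newborn neuron-like cells, which carry Neurog2, Neurod4 and Nhlh1, had 726 and 544 CPM. Their sum in RA+BMP4 lay beside that of roof plate-like cells, which had 732 CPM in RA+BMP4 and 525 CPM in RA. Pluripotent-like cells had 257 and 240 CPM, and endoderm-like cells 207 and 184 CPM.

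**Figure D1:**
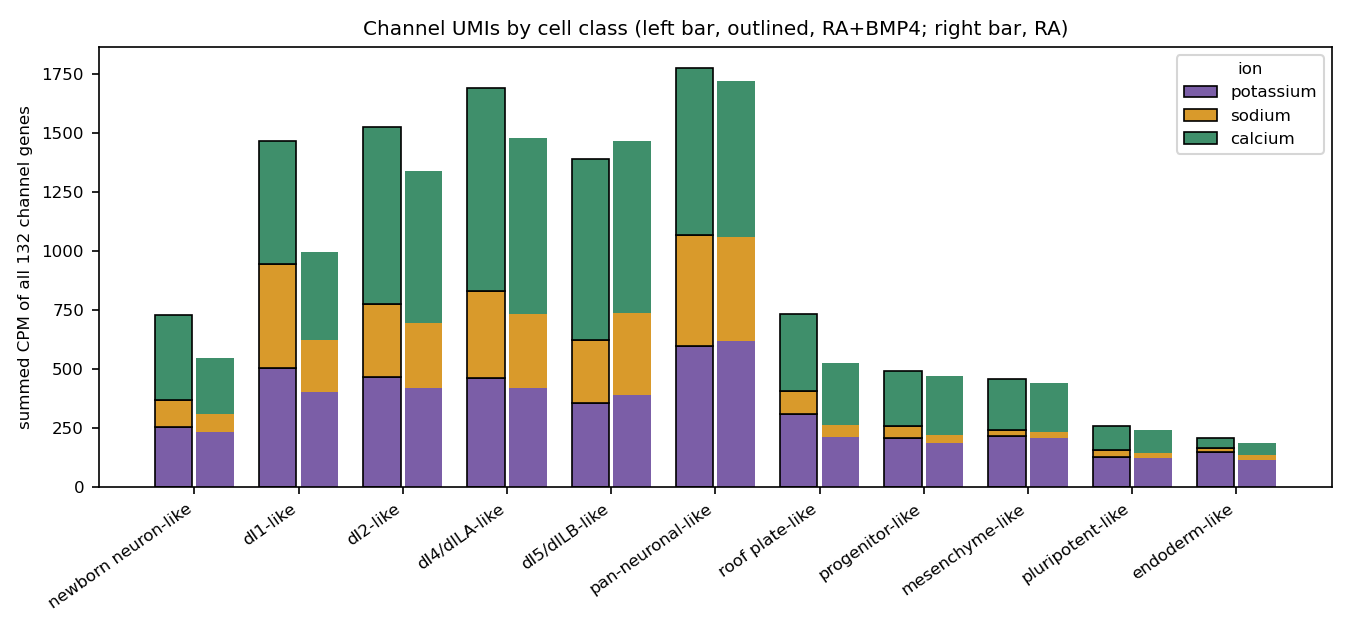
Summed CPM of all 132 channel genes (vertical axis) in each cell class, split by ion, with RA+BMP4 as the left, outlined bar and RA as the right bar. Sodium channel genes gave 473 CPM of the 1775 CPM in pan-neuronal-like cells of RA+BMP4, and 28.7 of 257 CPM in pluripotent-like cells.

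A member was counted in a comparison where it reached 5 CPM on at least 1 side in each library, and was called where it was at least 2-fold apart. For neuron-like against other cells 41 members passed that floor in both libraries. Of them 28 were called higher in both libraries and 2 lower, where 14.2% of all 11081 genes over the floor were called higher and 16.0% lower. A member that passes only through its high side has to differ, so the 13 members with at least 5 CPM on both sides in both libraries were also counted: 5 were called higher and 0 lower, against 10.6% and 8.43% of such genes. The members' median log2 ratio was 2.34, and that of all genes over the floor was 0.06. Channel genes and all list genes had been kept out of the clustering, so these values did not form the classes.

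Of the sodium channel genes 5 of 5 counted members were called higher in neuron-like cells, beside 14.2% of all genes, and some of these passed the floor only through the neuron-like side. Scn3a, the pore subunit Nav1.3 of embryonic neurons, had the highest level of any member, with 202 CPM in neuron-like and 44.3 CPM in other cells of RA+BMP4, and 151 and 13.6 CPM in RA. Scn2a (Nav1.2) had 44.8 and 3.27 CPM in neuron-like and other cells of RA+BMP4, and 42.9 and 1.80 CPM in RA. Scn8a (Nav1.6) was spread more widely, with 33.8 and 10.9 CPM in RA+BMP4 and 34.5 and 11.2 CPM in RA. Scn3b, a beta subunit that modifies sodium channel gating, had 51.9 CPM in neuron-like cells and 2.58 CPM in other cells of RA+BMP4, and 49.4 and 2.36 CPM in RA. Outside neuron-like cells Scn3b and Scn2a were under the 5 CPM floor used below in both libraries, and Scn3a and Scn8a were above it.

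Among potassium channels, 14 of 20 counted members were called higher in neuron-like cells and 2 lower, beside 14.2% and 16.0% of all genes. Some of these passed the floor only through their high side. Kcnma1, the large-conductance BK channel, had 44.5 and 5.34 CPM in RA+BMP4, and 43.6 and 7.72 CPM in RA. Kcnc1 (Kv3.1), a delayed rectifier of fast-spiking neurons, had 36.1 and 2.64 CPM in RA+BMP4, and 29.5 and 1.48 CPM in RA. Kcnk10, the leak channel TREK-2, had 34.4 and 2.43 CPM in RA+BMP4, and 19.2 and 1.11 CPM in RA. All 4 counted members of the EAG, ERG and ELK family were called higher, beside 14.2% of all genes. Kcnh8 led them with 24.1 and 1.5 CPM in RA+BMP4, and 17.7 and 0.331 CPM in RA. It passed the floor only through its neuron-like side.

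None of the 8 Kv1 genes, the 10 genes of silent Kv modifier subunits or the 15 inward rectifier (Kir) genes passed the floor for this comparison in both libraries. The whole Kv1 family summed to between 4.0 and 12.7 CPM in the 6 neuron classes. The 2 members called lower in neuron-like cells were Kcnn3 and Kcnk1. Kcnk1, the leak channel TWIK-1, had 3.60 CPM in neuron-like and 10.6 CPM in other cells of RA+BMP4, and 2.86 and 16.2 CPM in RA.

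Among calcium channel genes, 9 of 16 counted members were called higher in neuron-like cells and 0 lower, beside 14.2% and 16.0% of all genes. Some of these also passed the floor only through the neuron-like side. Cacna2d1, an alpha2delta subunit and the target of gabapentin, had 133 and 17.5 CPM in neuron-like and other cells of RA+BMP4, and 106 and 11.1 CPM in RA. Cacna1b, the N-type pore subunit of presynaptic terminals, had 32.8 and 3.01 CPM in RA+BMP4, and 41.7 and 3.60 CPM in RA. Cacna1a, the P/Q-type pore subunit, differed less, with 54.4 and 21.2 CPM in RA+BMP4 and 45.9 and 23.6 CPM in RA. Of the TARPs, Cacng2 (stargazin) had 27.0 and 1.06 CPM in RA+BMP4, and 34.3 and 0.532 CPM in RA. Cacng4 was abundant on both sides, with 112 and 95.7 CPM in RA+BMP4, and 103 and 74.4 CPM in RA.

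**Figure D2:**
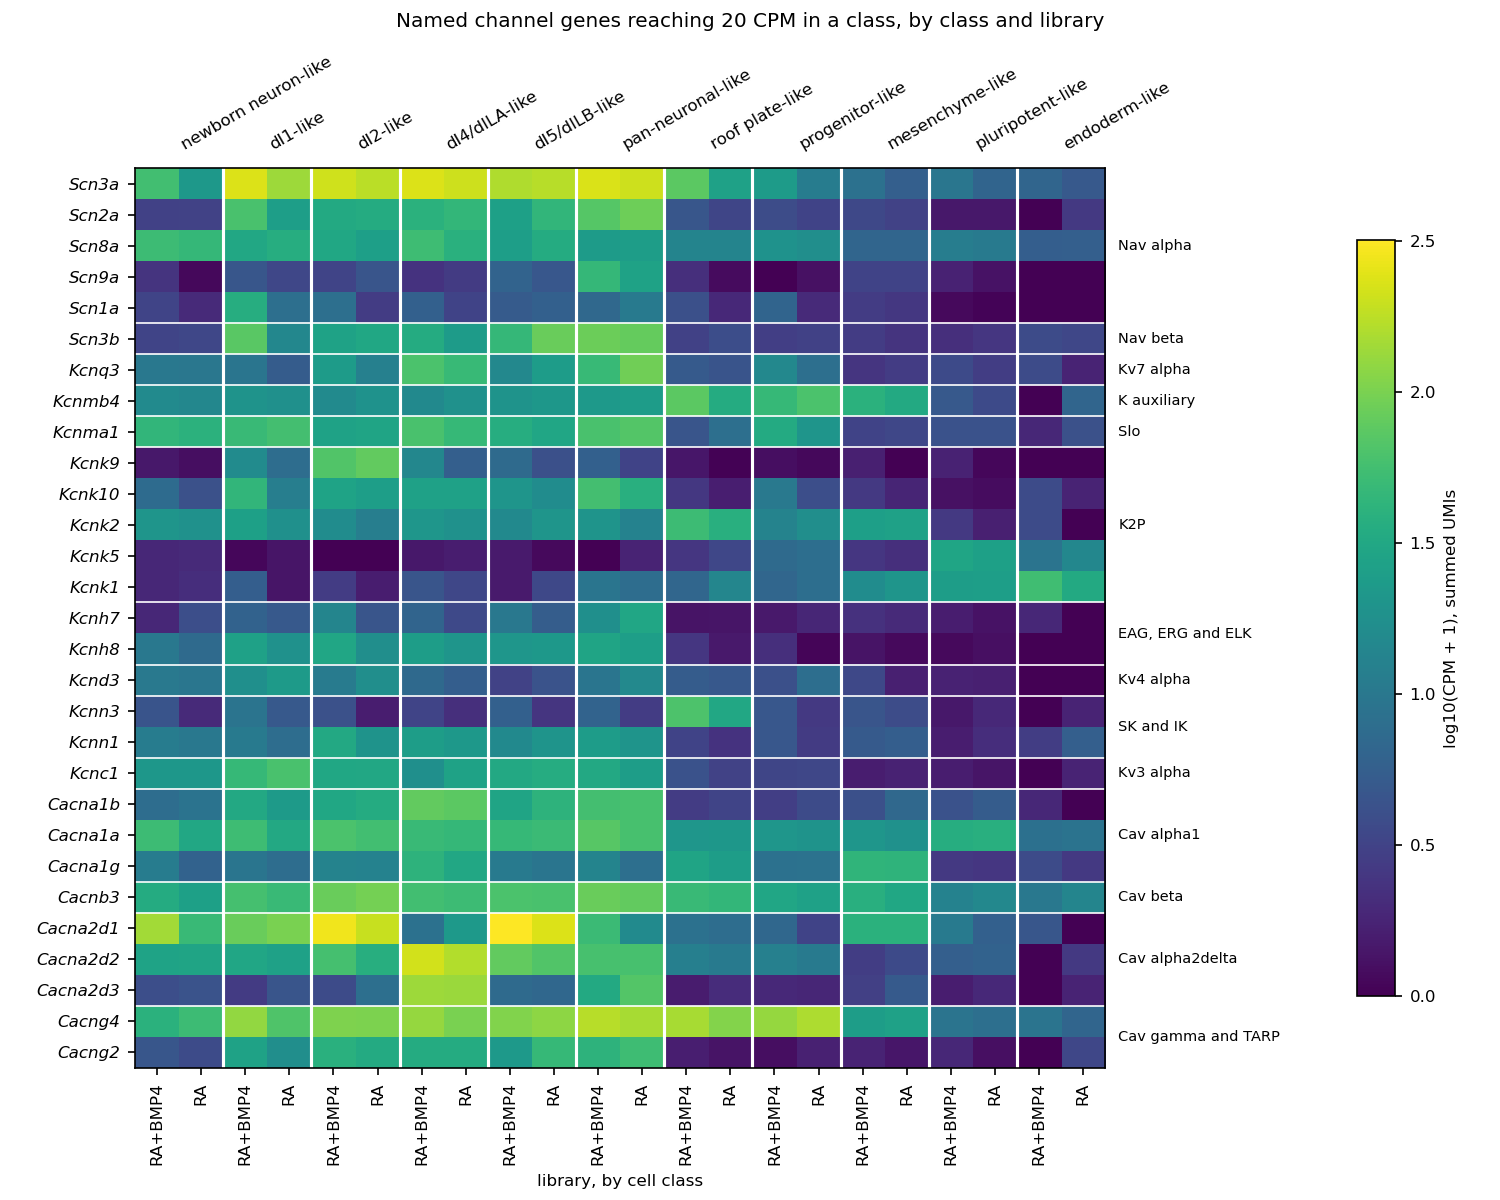
Level of the channel genes named in the text that reached 20 CPM in a class (rows, grouped by family) in each class and library (columns, RA+BMP4 left of RA), as log10(CPM + 1) of summed UMIs; endoderm-like cells are shown but did not choose rows. Scn3a and Cacng4 are bright across neuron classes, while Cacna2d3, Kcnk9, Scn9a and Kcnn3 are each brightest in 1 class.

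Non-neuronal classes also had leading channel genes, of which Kcnk1 and Kcnk5 led in both pluripotent-like and endoderm-like cells. In pluripotent-like cells these were Kcnk5, Kcnk1 and Kcnip3. Kcnk5, an acid-sensitive leak channel, had 28.5 CPM in pluripotent-like cells and 1.54 CPM in all other cells of RA+BMP4, and 25.5 and 2.31 CPM in RA. In mesenchyme-like cells the T-type calcium channel gene Cacna1g led, with 42.0 CPM against 17.2 CPM elsewhere in RA+BMP4, and 41.8 against 11.8 CPM in RA. Kcnj8, the Kir6.1 pore of ATP-sensitive potassium channels in muscle and vessel walls, was low but nearly limited to this class, with 4.73 and 0.04 CPM in RA+BMP4, and 7.31 and 0.07 CPM in RA. Kcnq5 had 7.19 and 0.63 CPM in RA+BMP4, and 5.18 and 0.35 CPM in RA.

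In progenitor-like cells the leading members were Kcnmb4, Cacng4 and Kcnma1. Kcnmb4, a beta subunit that slows the BK channel, had 46.9 CPM in progenitor-like cells and 39.8 CPM elsewhere in RA+BMP4, and 61.0 and 20.9 CPM in RA. Kcnma1 differed in direction between libraries, with 32.9 and 17.8 CPM in RA+BMP4 but 19.1 and 21.0 CPM in RA. In the 59 endoderm-like cells, 32 in RA+BMP4 and 27 in RA, Kcnk1 led with 54.0 against 7.78 CPM elsewhere in RA+BMP4, and 32.5 against 11.1 CPM in RA. Kcng1 and Kcnk5 followed.

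Cacna2d3 led in dI4/dILA-like cells, the class named for inhibitory Pax2 neurons, with 136 CPM against 4.73 CPM in the other neuron-like cells of RA+BMP4, and 133 against 20.1 CPM in RA. Cacna2d2 had 213 against 39.6 CPM in RA+BMP4, and 162 against 49.9 CPM in RA. Cacna1g had 40.6 against 9.85 CPM in RA+BMP4, and 30.7 against 7.38 CPM in RA. The same class had the lowest Cacna2d1 of the neuron classes in RA+BMP4, at 7.58 CPM, and had 21.0 CPM in RA.

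Cacna2d1 was instead highest in dI5/dILB-like and dI2-like cells. It had 318 CPM in dI5/dILB-like cells and 122 CPM in the other neuron-like cells of RA+BMP4, and 235 and 45.4 CPM in RA. In dI2-like cells it had 281 against 99.4 CPM in RA+BMP4, and 196 against 102 CPM in RA. Neurons of the dI5/dILB and dI4/dILA classes therefore differed in which alpha2delta gene they carried most of, in both libraries. After each cell was thinned to 5000 UMIs, Cacna2d1 was found in 67.0% [59.8 to 73.7] of dI5/dILB-like cells of RA+BMP4 and 49.2% [46.0 to 52.4] of RA. It was found in 3.12% [1.36 to 6.06] and 5.55% [3.85 to 7.70] of dI4/dILA-like cells, and in 15.7% and 16.5% of mesenchyme-like cells.

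Kcnk9, the acid-sensitive leak channel TASK-3, marked the dI2-like class, which carries Foxd3, Hmx2 and Hmx3. It had 65.1 CPM in dI2-like cells and 11.3 CPM in the other neuron-like cells of RA+BMP4, and 78.3 and 2.86 CPM in RA. At 5000 UMIs per cell it was found in 21.4% [18.1 to 25.0] of dI2-like cells of RA+BMP4 and 19.1% [12.4 to 27.5] of RA. In mesenchyme-like cells the shares were 0.440% in RA+BMP4 and 0 of 430 cells in RA, which allows a share of up to 0.698% of cells with a UMI at that depth. Median depths before thinning were 10120 and 14235 UMIs in dI2-like and 15715 and 25133 UMIs in mesenchyme-like cells of RA+BMP4 and RA. Kcnt2, a potassium channel gene of the Slo family, was low but also leading in this class, with 9.14 against 2.65 CPM in RA+BMP4, and 10.2 against 3.15 CPM in RA.

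Pan-neuronal-like cells, led by Syt4, Sncg and Gap43, were marked by Scn9a, Kcnq3 and Kcnh7. Scn9a (Nav1.7), a sodium channel of nociceptors, had 45.2 against 3.0 CPM in the other neuron-like cells of RA+BMP4, and 26.6 against 2.28 CPM in RA. Kcnq3, a subunit of the M current that restrains repetitive firing, had 47.6 against 15.4 CPM in RA+BMP4, and 90.6 against 22.7 CPM in RA. Kcnh7, an ERG channel gene, had 16.5 against 6.35 CPM in RA+BMP4, and 29.2 against 3.61 CPM in RA.

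In dI5/dILB-like cells Scn3b and Cacng8 followed Cacna2d1, but Scn3b did so only in RA, with 83.5 against 33.5 CPM. In RA+BMP4 it had 45.9 against 52.2 CPM. Newborn neuron-like cells had low leaders: Kcnk12, a silent two-pore-domain subunit, had 4.13 against 0.94 CPM in RA+BMP4, and 5.53 against 1.65 CPM in RA. Scn8a was higher there than in other neuron-like cells by a small margin, with 51.0 against 31.3 CPM in RA+BMP4, and 45.5 against 31.8 CPM in RA.

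The dI1-like class, the Atoh1 and Barhl lineage, had Scn1a and Kcnd3 among its leading members. Scn1a (Nav1.1) had 35.05 CPM in dI1-like and 5.18 CPM in the other neuron-like cells of RA+BMP4, and 7.18 and 4.38 CPM in RA. Kcnd3, an A-type potassium channel gene, had 16.5 against 8.26 CPM in RA+BMP4, and 21.95 against 7.58 CPM in RA.

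Maturity was scored per neuron-like cell as the mean log level of late maturation genes minus that of early ones, with no channel gene in either list. The cells of both libraries were split into 3 equal ranges at scores of 0.19 and 0.69. The channel sum was 838, 1526 and 1780 CPM in the earliest, middle and latest range of RA+BMP4, and 780, 1504 and 1721 CPM in RA. Within 0.1 of a limit lay 89, 460 and 361 RA+BMP4 cells and 130, 397 and 231 RA cells of the 3 ranges. Newborn neuron-like cells made up 403 of the 990 earliest RA+BMP4 cells and 633 of the 1174 earliest RA cells, and 0 of the latest in either library. Pan-neuronal-like cells made up 1 of the earliest and 185 of the 1370 latest RA+BMP4 cells. In RA they made up 3 of the earliest and 406 of the 794 latest cells. Within the latest range the channel sum of pan-neuronal-like cells was 1794 CPM in RA+BMP4 and 1728 CPM in RA. In dI4/dILA-like cells of that range it was higher, at 2179 and 1978 CPM in 46 and 56 cells.

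Between the latest and the earliest range 46 members passed the floor in both libraries. Of these 27 were called higher in both and 1 lower, where 10.8% of 10368 genes were called higher and 6.33% lower. Among the 27 members with at least 5 CPM on both sides, 11 were called higher and 0 lower, against 7.02% and 3.59% of such genes. The median log2 ratio in RA+BMP4 and RA together was 1.49 over the members and 0.10 over all genes. Sodium channels gave 5 of 6 counted members, potassium channels 13 of 23 and calcium channels 9 of 17, beside 10.8% of all genes. Some members of each ion passed the floor only through the latest range.

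Scn3b had a wide span across the ranges. It had 3.37, 48.8 and 92.0 CPM in the earliest, middle and latest range of RA+BMP4, and 4.0, 50.2 and 106 CPM in RA. The latest-over-earliest ratio was 27.3 [19.5 to 39.4] in RA+BMP4 and 26.5 [20.4 to 35.05] in RA. The same order was seen inside single classes. In dI4/dILA-like cells Scn3b had 10.96, 26.1 and 89.6 CPM in RA+BMP4 and 8.48, 24.7 and 62.0 CPM in RA. In dI5/dILB-like cells it had 6.20, 32.8 and 102 CPM in RA+BMP4 and 6.56, 74.8 and 163 CPM in RA.

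The sodium pores differed from each other. Scn2a had 6.84, 39.8 and 78.3 CPM across the 3 ranges of RA+BMP4 and 9.21, 47.0 and 81.05 CPM in RA, ratios of 11.45 [8.99 to 14.8] and 8.80 [7.35 to 10.6]. Scn9a, a leading gene of pan-neuronal-like cells, had 0.67, 3.55 and 12.2 CPM in RA+BMP4 and 0.61, 3.68 and 19.25 CPM in RA. How far its levels followed the share of that class in each range was not tested. Scn3a had reached most of its level by the middle range, with 94.6, 235 and 260 CPM in RA+BMP4 and 54.45, 203 and 215 CPM in RA. Scn8a had 40.8, 30.04 and 31.3 CPM in RA+BMP4 and 43.2, 30.3 and 28.3 CPM in RA and was not called.

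Of the potassium channels, Kcnd2 (Kv4.2), an A-type channel of dendrites, had 0.29, 3.26 and 10.4 CPM in RA+BMP4 and 0.14, 1.76 and 7.13 CPM in RA. Its earliest levels rested on 3 UMIs in RA+BMP4 and 2 UMIs in RA, so the ratios of 36.1 [12.1 to 177] and 35.1 [14.1 to 442] are wide. Kcnk10 had 8.77, 36.2 and 53.0 CPM in RA+BMP4 and 4.60, 21.6 and 35.1 CPM in RA. The leak channel gene Kcnk3 (TASK-1) had 0.19, 1.63 and 5.70 CPM in RA+BMP4 and 0.27, 2.68 and 5.41 CPM in RA.

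Other members did not share that order. Kcnmb2, an inactivating BK beta subunit, had 6.07, 1.34 and 0.97 CPM in RA+BMP4 and 2.10, 1.00 and 0.95 CPM in RA, and was under the floor in RA. Cacna2d1 had 150, 185 and 78.0 CPM in RA+BMP4 and 138, 133 and 34.0 CPM in RA, and was called lower in RA alone, where 8.24% of 10544 genes were. Kcnc1 was not called, with 32.1, 31.9 and 42.5 CPM in RA+BMP4 and 28.3, 32.0 and 28.1 CPM in RA.

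Calcium channel genes called higher in the latest range included Cacnb4, Cacna1d, Cacna1b and the TARPs Cacng2, Cacng4 and Cacng8. Cacng2 had 5.49, 29.3 and 41.9 CPM in RA+BMP4 and 8.33, 43.3 and 57.1 CPM in RA. Cacna1d, an L-type pore gene, had 2.6, 5.85 and 14.2 CPM in RA+BMP4 and 3.45, 9.81 and 15.6 CPM in RA. Cacnb3, the most abundant beta subunit, had 39.2, 69.4 and 71.6 CPM in RA+BMP4 and 28.1, 64.7 and 80.9 CPM in RA, called higher in RA alone, where 14.4% of 10544 genes were.

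**Figure D3:**
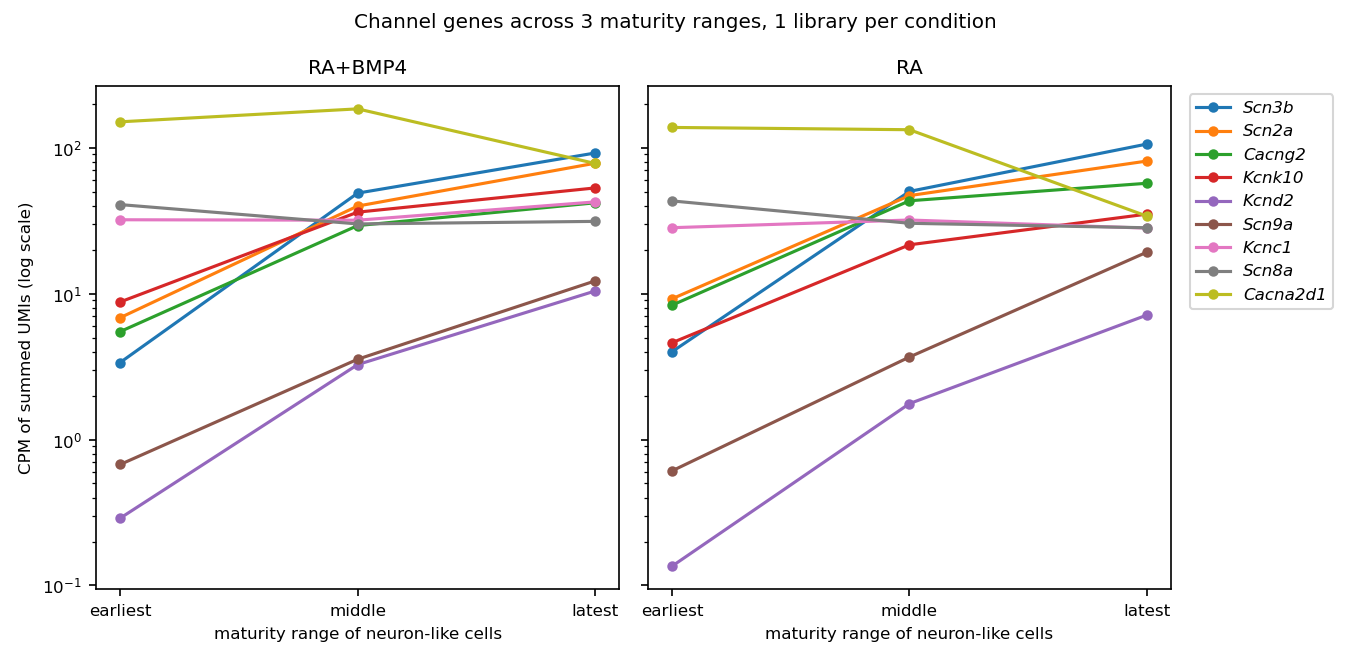
CPM of 9 channel genes (log axis) in the earliest, middle and latest maturity range of neuron-like cells, with RA+BMP4 on the left and RA on the right. Scn3b lies below Kcnc1 and Scn8a in the earliest range and above both in the middle and latest ranges of each library.

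RefSeq promoter windows of the members on GRCm38.p6, 250 bases before to 50 after a start, were searched on both strands. The late genes below were chosen from these same data by their call in the latest range. Windows were found for 97 of the 132 members (133 windows) and for 17 of the 27 genes called higher in the latest range (26 windows). The E-box CAGCTG occurred in 30.8% of the windows of the late genes, 27.1% of all member windows and 16.3% of all 32851 windows. The other E-box searched, CATCTG, occurred in 11.5%, 19.5% and 17.2%. Median GC content was 60.2%, 58.0% and 52.7% in the same order. The GC box GGGCGG occurred in 38.5%, 45.1% and 35.7%, and TATAAA in 7.69%, 5.26% and 13.6%. The left arm of the RE1 element, TTCAGCACC, occurred in 0 of the 26 late windows, 0.752% of member windows and 0.371% of all windows. Its right arm, GGACAG, occurred in 15.4%, 24.8% and 22.2%, and the TCF/LEF motif CTTTGAT in 0 late windows, 2.26% of member windows and 3.73% of all windows. The windows of 3 late genes, a potassium channel, a sodium channel and a TARP, are shown with their matches in capitals: GGGCGG in Kcnd2 (chr6:21215096-21215395, plus strand), TATAAA in the second window of Scn2a (chr2:65668436-65668735, plus strand) and CAGCTG in Cacng2 (chr15:78119231-78119530, minus strand). No 2 matches overlapped in these windows, and a match describes letters, not a bound site.
Kcnd2: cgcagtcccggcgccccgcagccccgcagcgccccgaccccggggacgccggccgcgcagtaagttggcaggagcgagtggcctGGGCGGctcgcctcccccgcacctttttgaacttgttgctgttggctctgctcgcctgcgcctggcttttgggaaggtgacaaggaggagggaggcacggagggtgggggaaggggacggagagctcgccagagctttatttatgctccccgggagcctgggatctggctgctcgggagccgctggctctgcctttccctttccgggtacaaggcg
Scn2a: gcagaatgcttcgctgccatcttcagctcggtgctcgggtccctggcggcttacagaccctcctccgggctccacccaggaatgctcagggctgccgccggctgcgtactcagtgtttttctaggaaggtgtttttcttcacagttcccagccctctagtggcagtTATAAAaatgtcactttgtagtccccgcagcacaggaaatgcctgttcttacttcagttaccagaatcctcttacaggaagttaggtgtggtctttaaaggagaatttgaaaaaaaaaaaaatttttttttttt
Cacng2: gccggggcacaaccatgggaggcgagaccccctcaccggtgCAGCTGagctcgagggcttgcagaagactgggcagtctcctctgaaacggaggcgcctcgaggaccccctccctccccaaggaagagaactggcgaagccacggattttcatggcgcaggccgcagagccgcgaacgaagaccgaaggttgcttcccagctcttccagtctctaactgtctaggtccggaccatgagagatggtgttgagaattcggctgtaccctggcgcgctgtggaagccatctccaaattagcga

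Between whole libraries, 41 members passed the floor and 6 were called higher and 1 lower in RA+BMP4, where 2.91% of 11030 genes were called, 1.5% higher and 1.41% lower. The 6 were Scn1a, Kcnmb2, Kcnk9, Kcnn3, Cacnb2 and Kcnj2, and the 1 was Cacna2d3. Of the 33 members with at least 5 CPM in both libraries, Kcnn3 was the 1 called higher and Cacna2d3 the 1 called lower, against 0.754% and 0.669% of such genes. The median log2 ratio of members over the floor was 0.17, and that of all genes 0.07. In whole libraries, more cells of a type and more RNA per cell cannot be told apart, so each of these was followed into its classes.

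Scn1a had 8.40 CPM in RA+BMP4 and 2.17 CPM in RA, a ratio of 3.88 [3.36 to 4.50]. Kcnk9 had 7.66 and 2.25 CPM, a ratio of 3.41 [2.95 to 3.95]. Cacna2d3 had 5.15 and 15.5 CPM, a ratio of 0.331 [0.300 to 0.366]. These are the leading genes of dI1-like, dI2-like and dI4/dILA-like cells, whose shares were 21.3%, 7.05% and 3.30% in RA+BMP4 and 2.98%, 1.95% and 10.2% in RA.

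Within neuron-like cells 43 members passed the floor, and 3 were called higher and 2 lower in RA+BMP4, where 2.92% of 10365 genes were called, 2.18% higher and 0.743% lower. Of the 39 members with at least 5 CPM in both libraries, Kcnk9 was called higher and Cacna2d3 and Kcnq3 lower, against 1.17% and 0.467% of such genes. Scn1a had 20.01 and 4.56 CPM, a ratio of 4.39 [3.72 to 5.20], and Kcnk9 had 21.1 and 6.06 CPM, a ratio of 3.48 [3.004 to 4.05]. Kcnn3 had 5.92 and 1.5 CPM, a ratio of 3.96 [2.95 to 5.38] that was 2.35 under a filter of 2000 genes and 5% mitochondrial UMIs. Cacna2d3 had 13.4 and 40.0 CPM, a ratio of 0.334 [0.300 to 0.371], and Kcnq3 had 17.7 and 36.2 CPM, a ratio of 0.489 [0.444 to 0.538]. With the 6 neuron classes given equal weight in both libraries, a setting chosen after seeing the data, 1 member, Scn1a, was then called. Its mean CPM over the classes was 9.96 in RA+BMP4 and 4.43 in RA, a ratio of 2.25. The same ratio was 1.11 for Kcnk9 (17.6 and 15.9 CPM), 0.825 for Cacna2d3 (30.4 and 36.8 CPM) and 0.877 for Kcnq3 (27.1 and 30.9 CPM). Kcnn3 kept a ratio of 2.73 (4.53 and 1.66 CPM) and was not called because it was under the 5 CPM floor. These means cover classes that differ. Of the neuron classes, Scn1a was called higher in dI1-like and dI2-like cells only. It had 35.05 and 7.18 CPM in dI1-like cells of RA+BMP4 and RA, and 5.18 and 4.38 CPM in all other neuron-like cells together. Kcnk9 was called higher in dI1-like (15.2 and 6.78 CPM), dI4/dILA-like (13.4 and 4.76 CPM) and dI5/dILB-like cells (6.40 and 3.11 CPM), and had 65.1 and 78.3 CPM in dI2-like cells. Cacna2d3 was called lower in dI2-like (2.73 and 7.17 CPM) and pan-neuronal-like cells (32.3 and 67.9 CPM), and had 136 and 133 CPM in dI4/dILA-like cells.

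**Figure D4:**
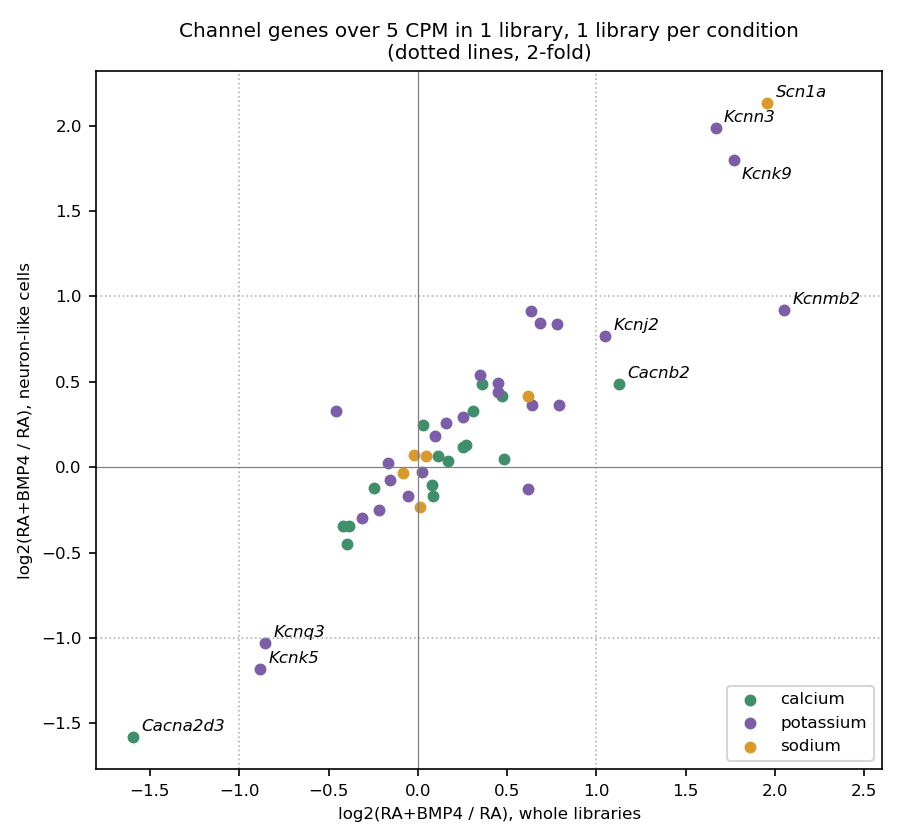
Each point is a channel gene over 5 CPM in 1 library, with the log2 ratio RA+BMP4 over RA in whole libraries (horizontal) and in neuron-like cells (vertical), coloured by ion; dotted lines mark 2-fold. Scn1a, Kcnn3 and Kcnk9 lie above 2-fold on both axes and Cacna2d3 below on both; Kcnk5 was under the floor in neuron-like cells.

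Class by class, the largest number of calls fell in dI1-like cells, where 16 of 44 members were called higher in RA+BMP4 and 1 lower, against 9.98% of all genes called in either direction. Scn3b had 72.1 CPM in RA+BMP4 and 13.6 CPM in RA, Scn2a had 59.9 and 24.3 CPM, Kcnk10 had 43.9 and 10.8 CPM and Cacnb4 had 16.4 and 2.8 CPM. The clusters of this class took different shares of it in the 2 libraries. Cluster 2, led by Sorcs3 and Robo2, held 900 RA+BMP4 and 23 RA cells, cluster 8, led by Lhx2, held 600 and 70, and the Atoh1-led cluster 18 held 278 and 83. Median maturity scores were 0.84 and 0.69 in cluster 2, 0.55 and 0.43 in cluster 8 and -0.57 and -0.59 in cluster 18 of RA+BMP4 and RA.

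Inside the latest maturity range of dI1-like cells, with 864 RA+BMP4 and 30 RA cells, 4 of 50 members were called higher and 2 lower, against 8.92% of genes. In the middle range, with 528 and 42 cells, 6 of 45 were called higher and 5 lower, against 9.7%. In the earliest range, with 386 and 104 cells, 4 of 28 were called higher and 1 lower, against 6.97%. The wide gap in Scn3b was 74.8 and 13.2 CPM in the middle range and 106 and 62.2 CPM in the latest.

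Scn1a was called higher in RA+BMP4 in all 3 ranges of dI1-like cells. It had 6.63 and 3.25 CPM in the earliest range on 27 and 5 UMIs, a ratio of 2.04 [0.775 to 6.79]. It had 32.6 and 13.2 CPM in the middle range on 159 and 7 UMIs, a ratio of 2.47 [1.17 to 6.25]. It had 51.0 and 13.8 CPM in the latest range on 408 and 6 UMIs, a ratio of 3.69 [1.68 to 10.1]. At 5000 UMIs per cell, Scn1a was found in 15.5% [13.8 to 17.3] of dI1-like cells of RA+BMP4 and 4.0% [1.62 to 8.07] of RA, beside 0.880% and 1.16% of mesenchyme-like cells. The RA values rest on few UMIs, and the interval of the earliest range includes a ratio of 1.

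Each of the other neuron classes had fewer members called than dI1-like cells. In dI2-like cells 2 of 39 were called higher and 1 lower, against 4.15% of genes; in dI4/dILA-like cells 4 of 42 and 2, against 4.14%; in dI5/dILB-like cells 2 of 40 and 2, against 4.78%; and in pan-neuronal-like cells 3 of 48 and 2, against 3.72%. Newborn neuron-like cells had 6 of 31 higher and 1 lower, against 4.02%, with cluster 7 holding 358 RA+BMP4 and 316 RA cells and cluster 17, led by Tlx1, holding 47 and 319. There Cacna2d1 had 142 and 48.5 CPM, a ratio of 2.93 [2.57 to 3.33], and Scn3a had 54.2 and 20.9 CPM, a ratio of 2.6 [2.12 to 3.19].

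Roof plate-like cells had 22 members over the floor. The roof plate is a signalling centre at the dorsal edge of the neural tube. Of these 5 were called higher in RA+BMP4 and 2 lower, against 4.03% of genes. In mesenchyme-like cells 1 of 24 was called higher and 1 lower, against 3.07% of genes, and in progenitor-like cells 4 of 21 and 2, against 3.42%. In roof plate-like cells Scn3a had 73.6 CPM in RA+BMP4 and 26.1 CPM in RA, a ratio of 2.82 [2.58 to 3.08], although these cells are not neurons. Kcnmb4 had 72.9 and 33.5 CPM, a ratio of 2.17 [2.01 to 2.36], and the inward rectifier Kcnj2 had 12.8 and 5.71 CPM, a ratio of 2.24 [1.84 to 2.75]. Kcnk1 was lower, with 5.78 and 13.04 CPM, a ratio of 0.443 [0.369 to 0.531]. Cluster 0 of this class, with Pla2g7 and Rspo3 in the lead, had 1792 RA+BMP4 and 208 RA cells. Cluster 10, with Cp and Colec12 in the lead, had 247 RA+BMP4 and 361 RA cells. With the 5 roof plate-like clusters given equal weight, a value added after the data were seen, the ratio was 1.68 for Scn3a, 1.62 for Kcnmb4 and 1.54 for Kcnj2.

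Kcnn3 encodes SK3, a small-conductance channel that opens when calcium binds its calmodulin and produces the afterhyperpolarisation in neurons. In these cultures most of its UMIs came from roof plate-like cells. Whole libraries had 24.6 CPM [from 2506 UMIs] in RA+BMP4 and 7.73 CPM [from 843 UMIs] in RA, a ratio of 3.18 [2.94 to 3.44]. Kcnn3 was named with this ratio known, so it is a description. Of its UMIs, 87.3% in RA+BMP4 and 83.9% in RA came from roof plate-like cells. The low-depth unnamed cluster 20, whose leading genes include Actc1, Tnnc1 and Des of muscle, had 43.1 CPM [27.0 to 65.3] in RA+BMP4 on 22 UMIs and 3.41 CPM [0.413 to 12.3] in RA on 2 UMIs. It had 7.14 and 0.837 Kcnn3 UMIs per 100 UMIs of the roof plate markers.

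Roof plate-like cells had 62.3 CPM of Kcnn3 [59.7 to 64.9] in RA+BMP4 and 30.8 CPM [28.6 to 33.2] in RA, a ratio of 2.02 [1.85 to 2.20]. By cluster the ratio was not uniform. Cluster 0 had 86.6 CPM [82.3 to 90.9] in RA+BMP4 and 55.2 CPM [47.2 to 64.2] in RA, a ratio of 1.57 [1.34 to 1.85]. The histone-led cluster 11 had 46.6 and 31.9 CPM, and cluster 12, led by mitotic genes, had 35.5 and 16.9 CPM. The Cp and Colec12 cluster 10 had 14.6 CPM [10.999 to 18.9] in RA+BMP4 and 19.7 CPM [16.7 to 22.9] in RA. Cluster 21, led by Col14a1 and Rspo1, had 53.3 CPM [39.4 to 70.4] and 59.7 CPM [50.4 to 70.2]. The direction was therefore higher in RA+BMP4 in clusters 0, 11 and 12, and the ratios of clusters 10 and 21, 0.741 [0.537 to 1.01] and 0.892 [0.632 to 1.24], were below 1 with intervals that include it. With the 5 clusters weighted equally, Kcnn3 had 47.3 and 36.7 CPM, a ratio of 1.29, again a value added after the data were seen.

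**Figure D5:**
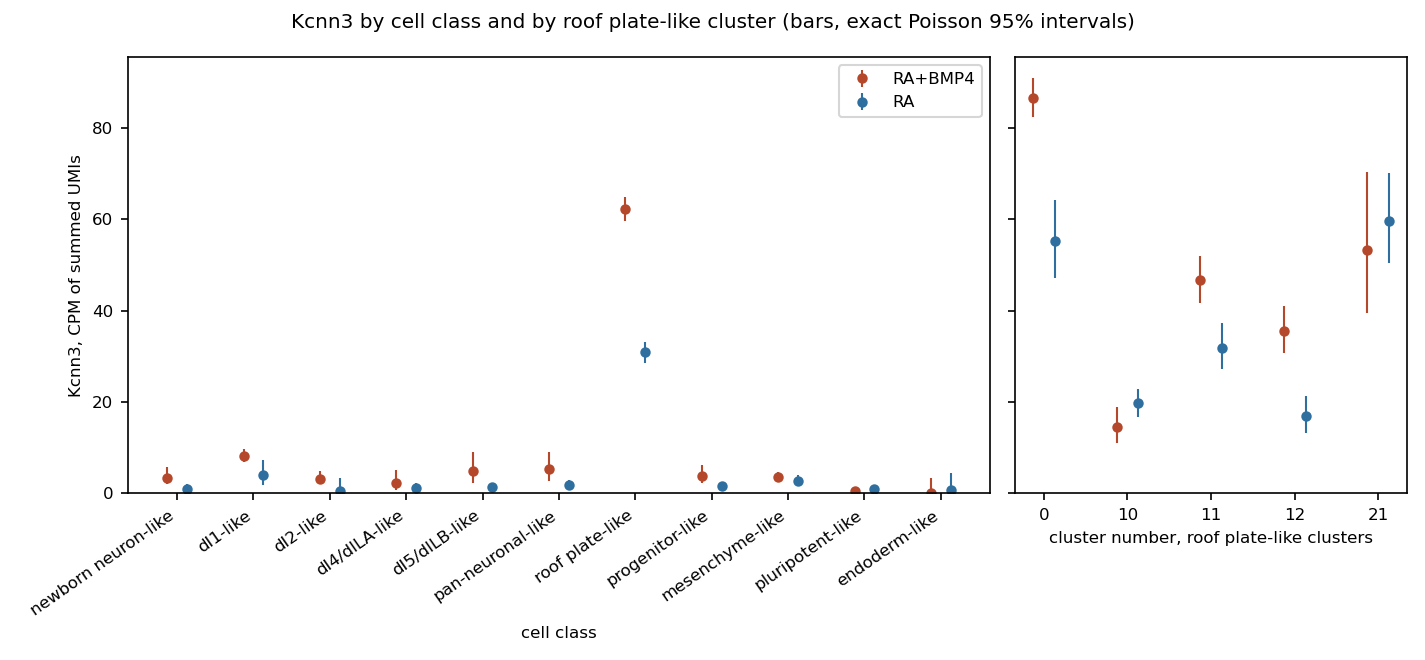
Kcnn3 in CPM of summed UMIs with exact Poisson 95% intervals, by cell class (left panel) and in the 5 roof plate-like clusters (right panel), with RA+BMP4 left of RA in each pair. Roof plate-like cells stand at 62.3 and 30.8 CPM, above every other class, and clusters 10 and 21 do not share the direction of clusters 0, 11 and 12.

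At 5000 UMIs per cell, Kcnn3 was found in 26.4% [24.8 to 28.1] of roof plate-like cells of RA+BMP4 and 14.85% [12.8 to 17.1] of RA; without thinning the shares were 45.5% and 38.6%. In mesenchyme-like cells the thinned shares were 1.76% [1.01 to 2.84] and 1.86% [0.807 to 3.63]. Thinning left out 573 RA+BMP4 and 187 RA cells below that depth.

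Neuron-like cells had far less Kcnn3 than roof plate-like cells. They had 5.92 CPM [5.13 to 6.79] in RA+BMP4 and 1.5 CPM [1.14 to 1.93] in RA, beside 3.59 and 2.79 CPM in mesenchyme-like and 3.79 and 1.63 CPM in progenitor-like cells. The neuron-like level was above the mesenchyme-like level in RA+BMP4 and below it in RA, with intervals that did not overlap (2.74 to 4.62 and 1.94 to 3.90 CPM in mesenchyme-like cells). The highest neuron class was dI1-like, with 8.26 CPM [6.95 to 9.75] in RA+BMP4 and 3.99 CPM [1.91 to 7.34] in RA on 10 UMIs. At 5000 UMIs per cell it was found in 4.04% [3.15 to 5.09] of dI1-like cells of RA+BMP4 and 1.71% [0.355 to 4.93] of RA, and of these the first lay above the mesenchyme-like share. All 12 roof plate markers had a UMI in neuron-like cells of each library, and summed to 305 CPM in RA+BMP4 and 214 CPM in RA, against 1842 and 1311 CPM in roof plate-like cells. For every 100 UMIs of those markers there were 1.94 and 0.700 Kcnn3 UMIs in neuron-like cells and 3.38 and 2.35 in roof plate-like cells of RA+BMP4 and RA. In dI1-like cells of RA Gdf7 was at 0. The part of roof plate RNA in the neuron-like level was not tested.

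Kcnn3 was 13.1-fold higher in roof plate-like than in all other cells of RA+BMP4, and 19.5-fold higher in RA. Other members also led there at lower ratios, 2.70 and 2.56 for Kcnk2 and 4.54 and 3.56 for Cacnb2. Kcnk2, the mechanosensitive leak channel TREK-1, had 50.5 CPM in roof plate-like and 18.7 CPM in all other cells of RA+BMP4, and 36.6 and 14.3 CPM in RA. Cacnb2 had 17.2 and 3.80 CPM in RA+BMP4, and 8.94 and 2.51 CPM in RA. Over 45 points, each a cluster in 1 library, the genes whose CPM was most correlated with Kcnn3 were Pla2g7 (Pearson's r = 0.948), Gm17455 (0.914), Gm36660 (0.913), Ptpru (0.912) and Sptb (0.910) of 10484 genes ranked. Among members the highest were Cacnb2 (0.781), Kcnk2 (0.758) and Kcnmb4 (0.591). Points of the same library share its depth and processing, so these values only describe likeness. Kcnn3 lies at chr3:89520164-89675132 on the plus strand of GRCm38. Its promoter window in RefSeq, chr3:89519914-89520213, held none of the motifs named for the late genes on either strand and is shown in lower case throughout, as the sequence at the start of the gene with the steepest roof plate pattern among the members.
Kcnn3: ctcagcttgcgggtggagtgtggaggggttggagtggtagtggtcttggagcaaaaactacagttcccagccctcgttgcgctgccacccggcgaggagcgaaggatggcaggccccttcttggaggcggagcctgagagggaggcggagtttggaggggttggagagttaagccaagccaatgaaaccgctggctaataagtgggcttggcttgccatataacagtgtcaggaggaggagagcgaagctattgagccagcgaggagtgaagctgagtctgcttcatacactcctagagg

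The other SK genes did not share the lower level of Kcnn3 in neuron-like than in other cells. Kcnn1 (SK1) had 16.0 and 2.93 CPM in neuron-like and other cells of RA+BMP4, and 16.3 and 2.01 CPM in RA. Kcnn2 (SK2) had 11.4 and 6.40 CPM in RA+BMP4, and 8.87 and 2.29 CPM in RA, and in mesenchyme-like cells it had 19.6 CPM in RA+BMP4 and 6.2 CPM in RA. Across the maturity ranges Kcnn2 had 4.05, 10.9 and 17.55 CPM in RA+BMP4 and 3.59, 9.5 and 14.9 CPM in RA, while Kcnn3 had 3.56, 7.29 and 6.67 CPM and 1.22, 1.69 and 1.63 CPM.

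The remaining whole-library calls were Kcnj2, Cacnb2 and Kcnmb2. Roof plate-like cells held 76.9% of the Kcnj2 UMIs in RA+BMP4 and 43.4% in RA, and 70.5% and 48.7% of the Cacnb2 UMIs. Kcnj2 had 5.74 CPM in RA+BMP4 and 2.77 CPM in RA, a ratio of 2.07 [1.80 to 2.39]. That ratio was under 2 with TMM factors (1.99), with DESeq2 size factors (1.97) and without pluripotent-like cells (1.87). It was 2.64 with each cell weighted equally and 3.20 under a filter of 2000 genes and 5% mitochondrial UMIs. Cacnb2 had 8.43 and 3.86 CPM, a ratio of 2.18 [1.94 to 2.46]. Kcnmb2 had 5.63 and 1.36 CPM, a ratio of 4.15 [3.45 to 5.001], and a ratio of 7.53 under that stricter filter. Without the unnamed clusters it had 2.96 and 1.36 CPM, a ratio of 2.17 [1.78 to 2.67], and was under the floor.

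Genes that work beside the channels were also counted. Of 28 channel partners and ion pumps, 20 passed the floor for neuron-like against other cells. Of these, 15 were called higher and 1 lower in both libraries, beside 14.2% and 16.0% of all genes. Some of the 15 passed only through the neuron-like side. Stac2, for example, had 1.12 and 1.06 CPM in other cells of RA+BMP4 and RA. Ank3, the ankyrin that anchors sodium channels at the axon initial segment, had 430 and 390 CPM in neuron-like cells of RA+BMP4 and RA, with latest-over-earliest ratios of 3.999 and 2.85. Slc12a5 (KCC2), the chloride exporter of mature neurons, had 14.7 and 17.0 CPM with ratios of 15.4 and 22.8. Of 20 other cation channel genes 13 passed the floor for the maturity comparison. In both libraries 6 were called higher and 2, Asic1 and Tpcn1, lower, beside 10.8% and 6.33% of all genes. Some passed only through 1 range, such as Hcn2, with 1.25 and 0.677 CPM in the earliest range of RA+BMP4 and RA. Fam155a, a subunit of the sodium leak channel NALCN, had ratios of 13.1 and 6.82, and Asic1 had 0.417 and 0.302.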

How the data were processed

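The authors deposited raw UMI counts per gene and barcode for 1 RA+BMP4 and 1 RA library, made, per the submitters' processing notes, with CASAVA and Cell Ranger 3.0.2 on GRCm38. The annotation release is not given in the sources used here. Channel genes were found by symbol, and coordinates came from GENCODE vM21 by gene ID.

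Barcodes with under 1000 genes or over 10% mitochondrial UMIs were dropped. Scrublet (scanpy 1.11.5, expected rate 0.08) called 298 RA+BMP4 (3.45%) and 138 RA doublets (2.29%), which were removed. Both libraries were clustered together without integration (3000 variable genes, 30 components, 20 neighbours, leidenalg 0.10.2, resolution 1), leaving out markers, all listed and channel genes, mitochondrial and ribosomal genes. A cluster was named by the marker list best represented in its 10 leading genes, given at least 3 markers in 10% of its cells at 1.5-fold; ties went to the highest mean fold. That naming rule postdates a first look at the clusters. Clusters 10, 11 and 12 were named roof plate-like with no leading marker. Cluster 19 stayed unnamed as too shallow, cluster 22 as mixed and cluster 20 because no marker list reached 3 markers.

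Counts were summed per class and library and scaled to CPM, with exact Poisson, exact conditional binomial (ratios) and exact Clopper-Pearson (shares) intervals. A library under 3 counts was set to 3 in a ratio. Calls needed 5 CPM on 1 side and a 2-fold difference. The calls were also run on simulated counts with known changes. Those counts held counting error only, without variation between libraries or shifts in cell make-up. Named genes were the highest members, the highest and lowest ratios, the leaders of classes and families, and list members. The members and lists were chosen with earlier results of these data known. Alternatives were other filters, scalings, floors, clusterings and maturity ranges, with TMM factors from edgeR 4.0.16 and size factors from DESeq2 1.42.0. Some genes are not reported here.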

Additional observations from a re-analysis of the deposited data

Results flagged for a closer look

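Cluster 22, which was compared with no class, held 2 members far above every named class. It entered only the whole-library sums, the sums of other cells and, for RA+BMP4, the points of the Kcnn3 correlations. It had 126 RA+BMP4 cells and 3 RA cells and had Ctla2a, Isl1, Nts, Cdh5 and Sox10 among its leading genes. Kcnmb2 reached 113 CPM there in RA+BMP4 [101 to 128], on 280 UMIs. Kcne3, a small auxiliary potassium channel subunit, reached 38.9 CPM [31.5 to 47.5] on 96 UMIs. The 3 RA cells held 20 Kcne3 UMIs and 0 Kcnmb2 UMIs.

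Cacna2d1 differed between RA+BMP4 and RA in opposite directions by class, and the difference between classes was not tested. Its RA+BMP4 over RA ratio was 2.93 in newborn neuron-like, 3.39 in pan-neuronal-like and 2.70 in progenitor-like cells, but 0.360 in dI4/dILA-like cells, where it had 7.58 CPM in RA+BMP4 and 21.0 CPM in RA.

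Kcnj2, which encodes the inward rectifier Kir2.1, also ran opposite ways, again untested. Its ratio was 2.24 in roof plate-like cells and 0.349 in mesenchyme-like cells, where it had 3.53 CPM in RA+BMP4 and 10.1 CPM in RA. Both mesenchyme-like clusters, 1 and 16, had the lower direction, at ratios of 0.390 and 0.276.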

How the results depend on the processing

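The count of members called between whole libraries was 7, where 2.91% of all genes were called. It was 1 with a floor of 20 CPM, 21 with no floor and at least 10 UMIs, and 14 at 1.5-fold. In the same order, 1.43%, 10.7% and 8.16% of all genes were called under these settings. Within neuron-like cells the count of 5, beside 2.92% of all genes, became 15 with no floor (8.86%) and 8 at 1.5-fold (7.95%). It was 1 (1.59%) with the neuron classes weighted equally, a setting chosen after seeing the data, as was leaving out newborn neuron-like cells. Weighting each cell equally gave 4 higher and 1 lower there, in place of 3 and 2, beside 3.29% of all genes. The Kcnn3 ratio of 3.18 was 3.52 under a filter of 2000 genes and 5% mitochondrial UMIs, 3.76 with each cell weighted equally and 2.89 without pluripotent-like cells. The ratio of channel UMIs in neuron-like over other cells, 2.40 in RA+BMP4, was 2.51 under that stricter filter, 2.32 with doublets kept and 2.26 without pluripotent-like cells. In RA it was 3.60, 2.99 and 2.69 under the same 3 settings, in place of 3.09. The cause of these shifts was not tested. The count of 27 members called higher in the latest range, beside 10.8% of all genes, ran between 19 and 31. It was 19 without newborn neuron-like cells, beside 6.15% of all genes. It was 31 with the scores cut into 5 ranges and the outer ones compared, beside 15.2%. No member called between whole libraries or within neuron-like cells reversed its direction in these settings. Ratios within single classes and clusters were not rerun under them. Kcne3, given among the results for a closer look, had a whole-library ratio of 3.55 [2.36 to 5.49] with all kept cells and 0.701 [0.230 to 1.98] without the unnamed clusters, a setting also chosen after seeing the data. The stricter filter kept 5895 RA+BMP4 and 1247 RA cells. No paired analysis was possible because each condition had 1 library. At the 5 CPM floor 41 members were counted between whole libraries.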
